A study of Mus musculus with 6 samples.

Results

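The enzymes and inhibitors that remodel the extracellular matrix of fat were followed in the white fat pad along the epididymis of Pparg ldi/+ mice and of wild-type mice. Their genes were taken by symbol, as all genes with a single platform symbol that begins with Mmp and a digit, with Adamts, or with Timp and a digit, and each was read from its brightest probe set over the 6 arrays. This gave 42 genes of 18193 with a single symbol: 18 Mmp, 15 Adamts, 5 Adamts-like (Adamtsl) and 4 Timp genes. Of these, 26 were bright enough to be tested, among 11201 genes tested in all.

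All mice were males of 10 weeks, labelled C57BL6;129Sv. The 3 Pparg ldi/+ mice carried 1 copy of the Pparg allele ldi, which the labels tie to lipodystrophy, and 1 wild-type copy, and the 3 wild-type mice were matched to them by litter. Pparg encodes the nuclear receptor that drives the formation of fat cells. RNA of each mouse went on its own Affymetrix MOE430v2.0 array, so 3 arrays stand for each genotype, and their number limits the precision.

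Matrix metalloproteinases (MMPs) are zinc enzymes that are made as inactive precursors and cleave collagens, elastin and other matrix proteins once their propeptide is removed. ADAMTS enzymes are secreted relatives that trim proteoglycans such as aggrecan and versican, process procollagens or act on fibrillin, while the ADAMTS-like proteins share the accessory domains and have no protease domain. Tissue inhibitors of metalloproteinases (TIMPs) bind the active site of these enzymes. Growing or inflamed fat remodels its matrix, and fat cells, stromal cells and macrophages each make part of this set.

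Several Mmp genes lie together on chromosome 9, and their promoters are shown here because the members of that group are compared below and because the activator protein 1 (AP-1) site, a target of FOS and JUN proteins, is a textbook feature of them. In the RefSeq table of GRCm38.p6, the stretch from Mmp13 to Mmp7 holds 10 protein-coding genes, all of them Mmp genes, and 9 of these 10 are among the members. The excerpts run from 100 bases before to 20 bases after the RefSeq start, 5′ to 3′ on the plus strand. Capitals mark the letters TGANTCA of the AP-1 motif and the letters TATAAA of the TATA box, on either strand, where N is any base. In the 5 excerpts that hold both, the AP-1 match comes first. Counted from the RefSeq start, the marked TATAAA begins at -29 in Mmp10, -26 in Mmp7, -16 in Mmp13 and -7 in Mmp3. It begins at -3 in Mmp8, on the minus strand, and at 5, after the start, in Mmp12. Whether each is a working TATA box was not tested.
Mmp13: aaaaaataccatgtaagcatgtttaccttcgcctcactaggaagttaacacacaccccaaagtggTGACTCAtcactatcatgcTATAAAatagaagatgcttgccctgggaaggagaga
Mmp12: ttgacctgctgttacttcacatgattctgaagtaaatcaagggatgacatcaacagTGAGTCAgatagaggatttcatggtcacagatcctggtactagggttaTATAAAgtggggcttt
Mmp3: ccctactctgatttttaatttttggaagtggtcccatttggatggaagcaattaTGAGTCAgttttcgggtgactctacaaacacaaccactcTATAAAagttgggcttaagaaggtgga
Mmp10: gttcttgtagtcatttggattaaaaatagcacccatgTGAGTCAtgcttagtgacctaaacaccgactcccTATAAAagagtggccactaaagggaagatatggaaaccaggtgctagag
Mmp8: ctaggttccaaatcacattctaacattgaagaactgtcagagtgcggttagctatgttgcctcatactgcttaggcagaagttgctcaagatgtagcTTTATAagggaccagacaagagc
Mmp7: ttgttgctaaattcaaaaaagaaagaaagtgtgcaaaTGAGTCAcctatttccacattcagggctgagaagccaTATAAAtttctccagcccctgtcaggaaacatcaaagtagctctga
They lie at chr9:7272414-7272533, chr9:7347274-7347393, chr9:7445722-7445841, chr9:7502242-7502361, chr9:7558329-7558448 and chr9:7691990-7692109 (GRCm38.p6, plus strand), the Mmp12 and Mmp7 ones at the one of 2 listed starts whose window holds the AP-1 match. Windows of 300 bases (250 before to 50 after the start) were given for 27 of the 42 genes. The AP-1 letters stood in 8 of these 27, and all 8 (Mmp1a, Mmp1b, Mmp3, Mmp7, Mmp10, Mmp12, Mmp13 and Mmp20) belong to the group on chromosome 9. Among the members in that group, Mmp8 alone lacked the AP-1 letters in its window. Over all genes with a window, 8.97% held them. TATAAA stood in 11 of the 27, against 15.7% of all genes. A strict form of the PPAR response element, the direct repeat that PPAR proteins bind, stood in 0 of the 27 windows and in 0.0481% of all genes. These are matches of letters and show no binding.

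Signals are the deposited intensities after scaling each array to a trimmed mean of 500, and differences are on the scale of log2(signal + 32), Pparg ldi/+ minus wild type, which understates changes of dim genes. Rose and fell mean an adjusted p below 0.05 by limma over all genes tested. The arrays had similar scales, with scaling factors of 2.12 to 2.49, and the same-genotype arrays correlated at 0.971 to 0.981 beside 0.885 to 0.909 between genotypes. Pparg itself had signals of 1732, 1709 and 1901 in Pparg ldi/+ fat, against 4378, 4440.3 and 4998 in wild-type fat, and fell 2.56-fold (adjusted p = 1.04e-05). The tissue label held in both genotypes, since the fat cell genes Adipoq and Fabp4 were bright on all 6 arrays, with lowest signals of 9887 and 27593. Pparg ldi/+ arrays 1 and 2 stood apart in markers of the epididymis, the duct beside this fat pad. The summed signal of 13 such genes was 23308 and 32010.4 there, and 837 on Pparg ldi/+ array 3, against 722 to 1354 on the wild-type arrays. The members are therefore also given from array 3 alone against the wild-type arrays.

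Of the 26 members tested, 8 rose, 5 fell and 13 did not pass. The 8 that rose were Mmp2, Mmp3, Mmp12, Mmp14, Mmp19, Adamts16, Adamtsl5 and Timp1, and the 5 that fell were Adamts5, Adamts12, Adamtsl4, Timp3 and Timp4. Over all 11201 genes 32.7% were called, 16.3% higher and 16.4% lower. The members' median difference was 0.17, beside -0.0043 over all genes tested. Differences of at least 2-fold were found for 4 of the called members (Mmp12, Timp1, Adamtsl4 and Timp4), where 8.36% of all tested genes were called at that size. The groups did not overlap in 14 of the 26, with 9 above and 5 below wild type, where 47.6% of all genes tested did not overlap, 23.6% above and 24% below. Among the 10 Mmp genes tested, 5 rose and 0 fell, and among the 12 Adamts and Adamtsl genes 2 rose and 3 fell. Mmp3, counted among those that rose, was too dim in wild type and was tested only through its Pparg ldi/+ level. Each of the members that passed did so with non-overlapping groups, for which an exact two-sided permutation test of the 6 values gives p = 0.1, the smallest that 3 against 3 arrays allow.

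**Figure D1:**
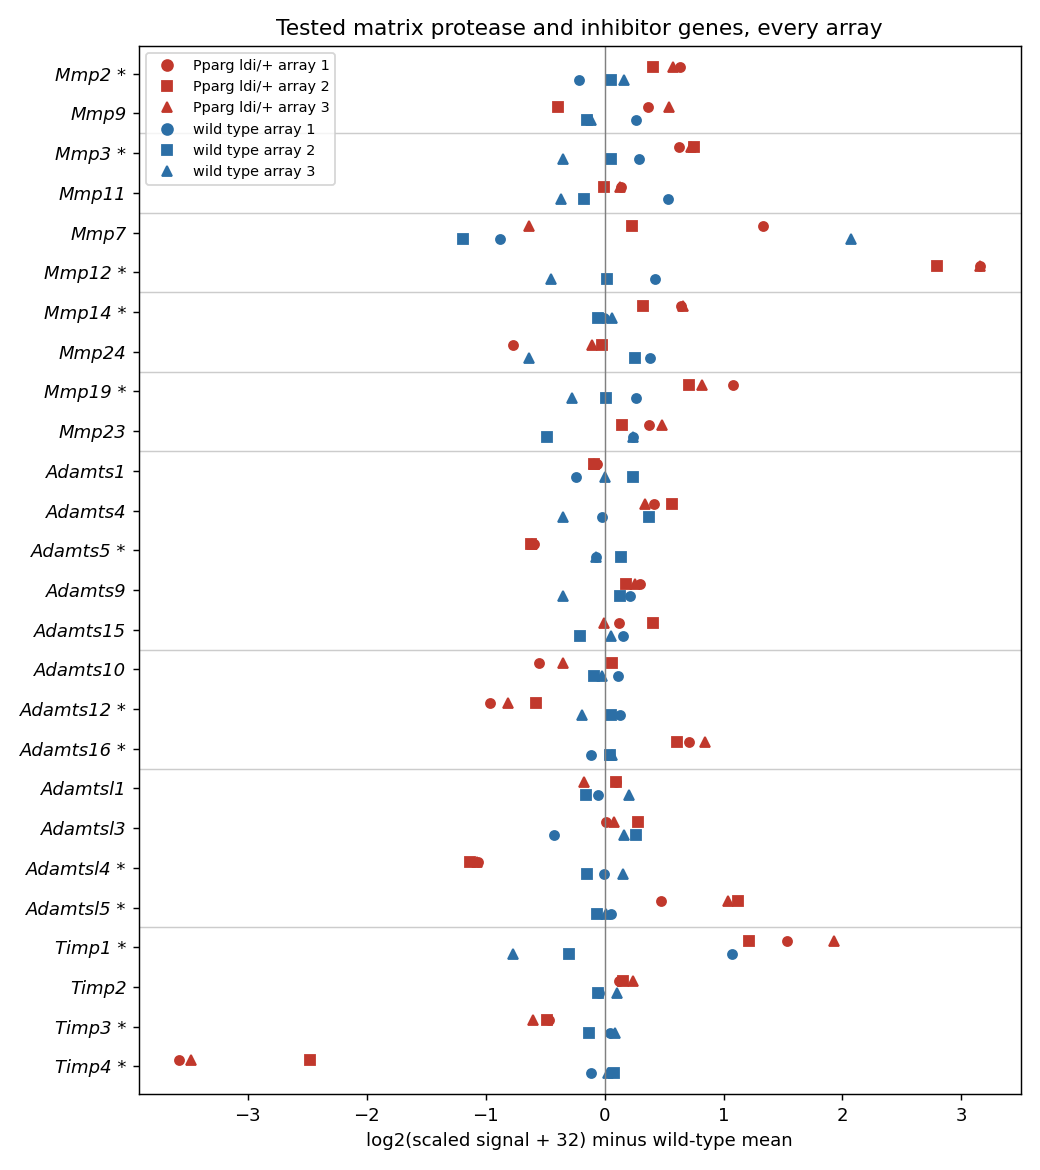
Each of the 26 tested members (rows, by role) on every array, as log2(scaled signal + 32) minus the wild-type mean. Pparg ldi/+ arrays are red and wild-type arrays blue, shapes give the array number, and a star marks the 13 genes past the threshold. Mmp12 lies farthest to the right and Timp4 farthest to the left.

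The inhibitors are taken first, because each of the 4 TIMP genes was bright enough to be tested and they went in different directions. Timp4, the TIMP with the most restricted tissue pattern and one that fat tissue is known to make, was the member that fell furthest. Its signals were 693, 1524 and 745 in Pparg ldi/+ fat, against 7958, 9103 and 8800.4 in wild-type fat. All Pparg ldi/+ arrays lay far below wild type, with array 2 the highest of them. Timp4 fell 9.03-fold (log2 -3.17, 95% confidence interval -3.75 to -2.60, SE 0.252, adjusted p = 3.78e-05). Its second probe set averaged 1059.6 ± 533 in Pparg ldi/+ and 6307 ± 259 in wild-type fat (SD, n = 3 each), a log2 difference of -2.64. With array 3 alone the difference was -3.47 (adjusted p = 2.08e-05).

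Timp1, a secreted inhibitor known as a target of inflammatory signals, rose. The signals of Timp1 were 2064, 1654 and 2733 in Pparg ldi/+ fat, against 1491, 557 and 393 in wild-type fat. Every Pparg ldi/+ array lay above every wild-type array, but wild-type array 1 was close to the lowest of them and far above wild-type arrays 2 and 3. The gene rose 2.95-fold (log2 1.56, interval 0.62 to 2.49, SE 0.410, adjusted p = 0.0188), and its SE was the largest among the members called. The call ended without Pparg ldi/+ array 1 (log2 1.57, adjusted p = 0.0529), without array 3 (log2 1.37, adjusted p = 0.0613) and without wild-type array 2 (log2 1.41, adjusted p = 0.0672). From array 3 alone it was at 1.93 and did not pass (adjusted p = 0.0758).

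Timp3, the TIMP that binds to the matrix itself and also inhibits ADAM17 and the aggrecan-cleaving ADAMTS enzymes, fell. Its signals were 3807, 3759 and 3464 in Pparg ldi/+ fat, against 5446, 4806 and 5586 in wild-type fat. The Pparg ldi/+ arrays were all below the wild-type arrays, and the fall was 1.43-fold (log2 -0.52, SE 0.0819, adjusted p = 0.00157). The 3 other probe sets of Timp3 were also lower in each Pparg ldi/+ array than in each wild-type array, with differences of -0.26, -0.56 and -0.36. On array 3 alone the difference was -0.60 and passed (adjusted p = 0.0277).

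Timp2, which together with MMP14 also takes part in the activation of the MMP2 precursor, had no settled direction. The probe set read for it had signals of 7949, 8152 and 8618 in Pparg ldi/+ fat, against 7064, 7038 and 7877 in wild-type fat. These groups lay close together without overlapping, and the difference of 0.17 did not pass (SE 0.0722, adjusted p = 0.107). Of its other probe sets, the 4 bright ones were at -0.10, -0.17, -0.17 and -0.25, each with overlapping groups, so the brightest probe set alone pointed upward among the 5 bright ones. The mean of all 6 gave -0.03 (adjusted p = 0.863), with a sixth, dim probe set at 0.36.

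**Figure D2:**
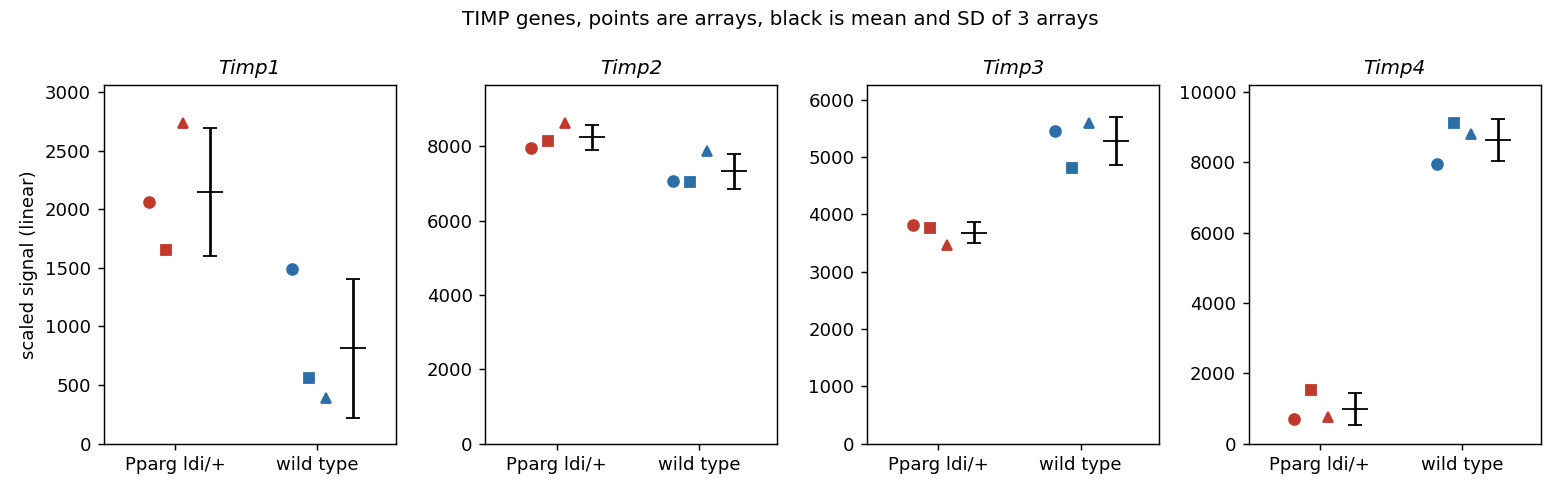
Scaled signal (linear, from 0) of the 4 TIMP genes on each array, Pparg ldi/+ on the left and wild type on the right of each panel, with the mean and SD of 3 arrays in black. Circles, squares and triangles are arrays 1, 2 and 3. Timp4 averaged 987 in Pparg ldi/+ against 8620.3 in wild-type fat, and wild-type array 1 of Timp1, at 1491, lies near the Pparg ldi/+ arrays.

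Fat cell genes fell in the same tissue. Of the 6 adipocyte markers measured, 5 fell and Fabp4 did not pass, with a median difference of -1.18, and their summed signal was 51129 to 57995 on the Pparg ldi/+ arrays and 106426 to 121507 on the wild-type arrays. None of the 6 was at 0 on any array. The hormone gene Retn, at -3.76, was the one marker with a difference larger than that of Timp4. In RNA of a whole fat pad, fewer cells of a type and less RNA per cell cannot be told apart, and the part of the fat cell share in the result for Timp4 was not tested.

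Macrophage elastase, Mmp12, was the Mmp gene with the largest difference. MMP12 cleaves elastin and is known as a product of macrophages. The signals were 7517, 5873 and 7553 in Pparg ldi/+ fat, against 1109, 831 and 589.6 in wild-type fat. Every Pparg ldi/+ array was far above every wild-type array. Mmp12 rose 8.21-fold (log2 3.04, interval 2.57 to 3.50, SE 0.203, adjusted p = 1.48e-05). Leaving out each array in turn gave differences of 2.81 to 3.25, all past the threshold, and array 3 alone gave 3.16 (adjusted p = 0.000925).

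Macrophage markers moved with it. All 13 rose, with a median difference of 1.54, and their summed signal was 97376 to 101389 on the Pparg ldi/+ arrays and 38086 to 49051 on the wild-type arrays. The difference of Mmp12 was larger than that of any of the 13, of which Gpnmb (2.57) and Mpeg1 (2.57) were the highest. None of the 13 was at 0 on any array. Within wild type, array 1 had the highest sum of these markers (49051, against 39082 and 38086 on arrays 2 and 3), and it was also the wild-type array with the most Mmp12 and Timp1 signal. Within Pparg ldi/+ the order was not shared, since the sums were 97376, 98782 and 101389 on arrays 1, 2 and 3, and array 2 had the least Mmp12 and Timp1 signal. The part of macrophage number in the results for Mmp12 and Timp1 was not tested.

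Gelatinase A and its activator rose by similar, smaller steps. Mmp2 encodes gelatinase A, which cleaves denatured collagen and basement membrane collagen and is made mainly by stromal cells. Its signals were 3562, 3039 and 3415 in Pparg ldi/+ fat, against 1954, 2372 and 2549.9 in wild-type fat. No Pparg ldi/+ array was as low as a wild-type array, and Mmp2 rose 1.46-fold (log2 0.54, SE 0.112, adjusted p = 0.00607). A second probe set of Mmp2 was at 0.41, also without overlap.

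Mmp14 encodes a membrane-anchored collagenase that activates the MMP2 precursor at the cell surface and is needed for fat cells to develop in a collagen matrix in mice. The signals of Mmp14 were 2056, 1648 and 2085 in Pparg ldi/+ fat, against 1303, 1257 and 1365 in wild-type fat. The wild-type arrays lay in a narrow band below the Pparg ldi/+ arrays. The rise was 1.46-fold (log2 0.54, SE 0.106, adjusted p = 0.00461), and its other probe sets were at 0.57 and 0.91, again without overlap. On array 3 alone Mmp14 was at 0.66 and passed (adjusted p = 0.0217), while Mmp2 was at 0.58 and did not (adjusted p = 0.0689).

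Mmp19, a widely expressed MMP that cleaves basement membrane components, rose as well. It had signals of 1192, 919 and 991 in Pparg ldi/+ fat, against 666, 553 and 447 in wild-type fat. The groups did not overlap, and the rise was 1.83-fold (log2 0.87, SE 0.156, adjusted p = 0.00299), with its second probe set at 0.64. Array 3 alone gave 0.82, which did not pass (adjusted p = 0.0586).

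Mmp3 encodes stromelysin, which cleaves proteoglycans and can activate other MMP precursors. Signals of Mmp3 were 211, 233 and 228 in Pparg ldi/+ fat, against 160.3, 132 and 91.7 in wild-type fat. The Pparg ldi/+ arrays were close to each other and above the more scattered wild-type arrays. Mmp3 rose 1.62-fold (log2 0.70, SE 0.208, adjusted p = 0.0317), but of the 26 members it was the only one whose wild-type mean lay below the cut for testing, so it was tested through its Pparg ldi/+ level. Its call ended when any one array other than wild-type array 1 was left out (log2 0.53 to 0.74, adjusted p = 0.0594 to 0.0898). It also ended with no filter on dim genes (adjusted p = 0.0635), with the array number as a block (adjusted p = 0.0665) and with array 3 alone (0.72, adjusted p = 0.226).

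The other 5 Mmp genes tested did not pass. Mmp9, gelatinase B of neutrophils and macrophages, had signals of 427, 241 and 487 in Pparg ldi/+ fat, against 397, 289.5 and 298 in wild-type fat, which overlapped (log2 0.17, interval -0.38 to 0.73, adjusted p = 0.635). Mmp7, the matrilysin of epithelial cells, was at 628, 276 and 137 in Pparg ldi/+ fat, against 111, 83.1 and 1070.0 in wild-type fat. Wild-type array 3 was the highest of all 6 arrays and wild-type arrays 1 and 2 the lowest, and within Pparg ldi/+ the arrays were spread as well. Its difference of 0.31 had an SE of 0.819 (adjusted p = 0.808), and without wild-type array 3 it was 1.34, still not past the threshold (adjusted p = 0.0833). Mmp11 was at 0.09, Mmp23 at 0.33 and the membrane-anchored Mmp24 at -0.30, with adjusted p of 0.806, 0.238 and 0.515. A dimmer probe set of Mmp9 was at 0.63 with overlapping groups.

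Along chromosome 9 the genes stand in the order Mmp13, Mmp12, Mmp1b, Mmp3, Mmp1a, Mmp10, Mmp8, Mmp20 and Mmp7. In 6 of these 9 every Pparg ldi/+ array lay above every wild-type array, and in 0 every one lay below. Of the 6, Mmp12 and Mmp13 had a clear gap between the genotypes. Mmp3 had a lowest Pparg ldi/+ signal of 211 and a highest wild-type signal of 160.3, and its call was unstable, as given above. Mmp8 counts by a margin of less than 3 units of signal and Mmp10 by less than 1, and Mmp1b is too dim for a difference to be read. Among genes tested, 23.6% were above in this way, and among the genes too dim to be tested, to which 6 of the 9 belong, 9.67% were. Mmp13, the interstitial collagenase of mice, had the largest difference of the untested members. Its signals were 320.3, 477 and 118 in Pparg ldi/+ fat, against 37.6, 55.2 and 34.3 in wild-type fat, so that array 3, the Pparg ldi/+ array with few epididymal transcripts, was the lowest of its genotype and still above wild type; the part of those transcripts was not tested. With no filter on dim genes Mmp13 was called at 2.02 (adjusted p = 0.0124), in a test that called 18.9% of 18193 genes.

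The rest of the group was dim. Mmp8, the collagenase of neutrophils, had signals of 182, 134 and 151 in Pparg ldi/+ fat, against 131, 120.3 and 106 in wild-type fat, a difference of 0.31. Mmp10, a stromelysin close to Mmp3 in function, was at 89.0, 25.7 and 64.8 in Pparg ldi/+ fat, against 21.4, 25.7 and 17.3 in wild-type fat, a difference of 0.72. Pparg ldi/+ array 2 of Mmp10 lay just above wild type and the other two clearly above. The collagenase genes Mmp1a and Mmp1b and the enamel gene Mmp20 stayed at or under 43.0 on every array, where the offset of 32 shapes the scale and no difference is read from them. The AP-1 letters stood in the promoters of Mmp12, Mmp13 and Mmp3, which were above wild type on all Pparg ldi/+ arrays. They stood also in that of Mmp10, which was above by its narrow margin, and equally in that of Mmp7, whose groups overlapped. Mmp1a, Mmp1b and Mmp20, from which no difference is read, held them as well. Mmp8, above wild type by its narrow margin, had none in its window.

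**Figure D3:**
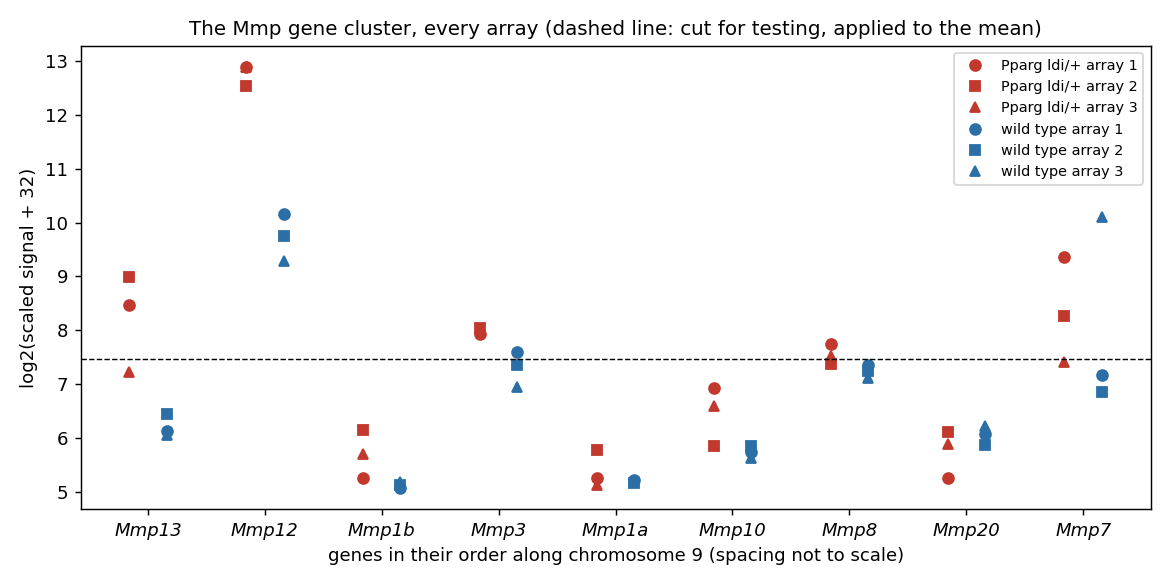
The 9 Mmp genes of chromosome 9 in their order along the chromosome, as log2(scaled signal + 32) on each array, Pparg ldi/+ in red left of wild type in blue. The dashed line is the cut of 7.46 for testing, and heights of different genes come from different probes and are not comparable. Mmp12 shows the widest gap between genotypes, and the Mmp7 point of wild-type array 3 is the highest of its gene. Mmp13 lies above the line on Pparg ldi/+ arrays 1 and 2, and below it on Pparg ldi/+ array 3 and every wild-type array.

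Among the proteoglycan-cleaving ADAMTS genes, Adamts5 fell and the other 4 tested did not pass. Adamts5 encodes the main aggrecan-cleaving enzyme of mouse cartilage, which also cleaves versican. Its signals were 5179, 5098 and 5116 in Pparg ldi/+ fat, against 7466, 8653 and 7473 in wild-type fat. The Pparg ldi/+ arrays were nearly equal and all lay below wild type. Adamts5 fell 1.53-fold (log2 -0.61, SE 0.0763, adjusted p = 0.000453), 2 further bright probe sets were at -0.61 and -0.83 without overlap and a dim one at 0.23 with overlap, and array 3 alone gave -0.61 (adjusted p = 0.0255).

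Adamts1 was at -0.08 (interval -0.36 to 0.20), Adamts4 at 0.44 (interval -0.00455 to 0.889), Adamts9 at 0.24 (interval -0.08 to 0.57) and Adamts15 at 0.17 (interval -0.17 to 0.52), and their adjusted p lay between 0.12 and 0.657. For Adamts4, an aggrecan-cleaving enzyme like ADAMTS5, the call turned on wild-type array 2, without which it passed at 0.63 (adjusted p = 0.0338). The probe sets of Adamts9, which cleaves versican, gave different sizes. The brightest was at 0.24, another at 0.84 without overlap and the dimmest at 0.35, and their mean passed at 0.48 (adjusted p = 0.0121).

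Of the remaining ADAMTS enzymes, Adamts12 fell and Adamts16 rose. Adamts12, which encodes an enzyme that cleaves cartilage oligomeric matrix protein, had signals of 451, 600.0 and 505 in Pparg ldi/+ fat, against 999, 948 and 793 in wild-type fat. The fall was 1.72-fold (log2 -0.78, SE 0.135, adjusted p = 0.00244) with no overlap, a dim second probe set was at -0.59, and on array 3 alone the difference was -0.81 (adjusted p = 0.0281). Adamts16 was at 308, 285 and 341 in Pparg ldi/+ fat, against 159.8, 183 and 185 in wild-type fat in the probe set read. It rose 1.65-fold there (log2 0.72, SE 0.151, adjusted p = 0.00661). Its other, dimmer probe set went the other way at -0.39 with overlapping groups, the mean of both was 0.17 and did not pass (adjusted p = 0.477), and array 3 alone gave 0.84 (adjusted p = 0.0725), so the rise belongs to 1 probe set. Adamts10, which takes part in fibrillin assembly, was at -0.28 (adjusted p = 0.212) and passed, among the alternatives run, only without Pparg ldi/+ array 2, at -0.45 (adjusted p = 0.0359). A dim second probe set of Adamts10 was at -0.71 without overlap, and the mean of both was -0.49 and did not pass (adjusted p = 0.0734).

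The ADAMTS-like genes, whose products bind matrix without cleaving it, moved in opposite directions. Adamtsl4, which encodes a fibrillin-binding protein whose loss displaces the eye lens in people, had signals of 702, 669 and 699 in Pparg ldi/+ fat, against 1498, 1357 and 1678 in wild-type fat. The Pparg ldi/+ arrays were close to each other and all lower, and the gene fell 2.13-fold (log2 -1.09, SE 0.101, adjusted p = 8.25e-05). Adamtsl5 was at 287, 468 and 441 in Pparg ldi/+ fat, against 206, 189 and 199.5 in wild-type fat. It rose 1.84-fold (log2 0.88, SE 0.190, adjusted p = 0.00776), with Pparg ldi/+ array 1 the lowest of its genotype, and its second probe set was at 0.63 with overlapping groups. Both passed with array 3 alone, at -1.07 and 1.04. Adamtsl1 (0.01, interval -0.44 to 0.45) and Adamtsl3 (0.12, interval -0.34 to 0.59) did not pass.

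**Figure D4:**
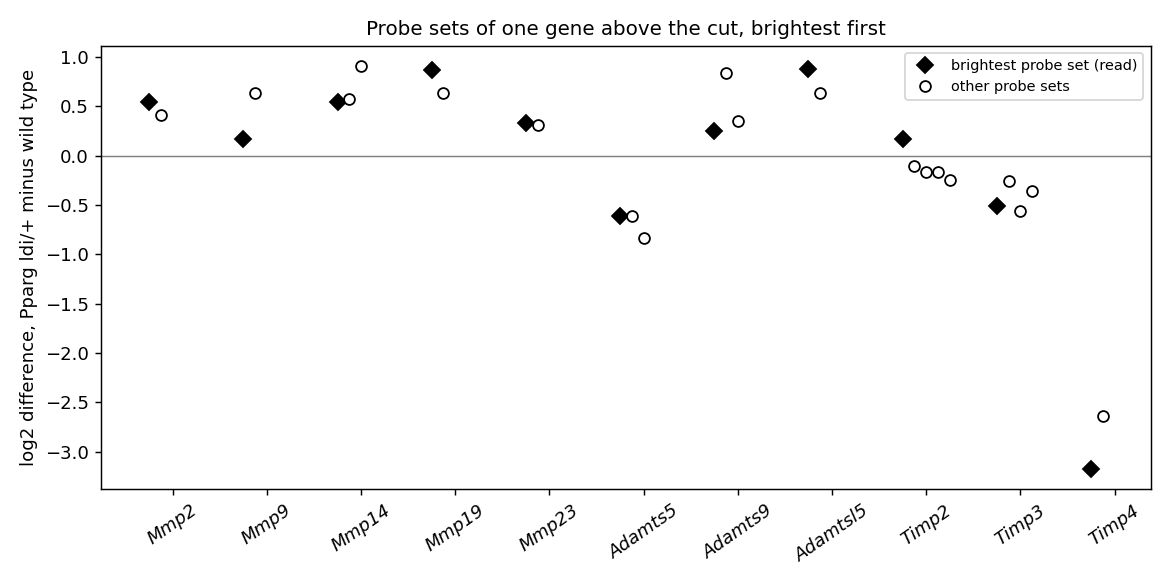
Log2 difference, Pparg ldi/+ minus wild type, of each probe set above the cut for the 11 tested members with more than 1 such probe set, brightest first. Filled diamonds are the probe sets read and open circles the others. The probe sets of Timp4, Timp3, Adamts5, Mmp14, Mmp19 and Mmp2 point the same way, while the diamond of Timp2 lies above 0 and its 4 other points below.

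The other 16 members were too dim to be tested, with signals between 0.748 and 477. Besides Mmp13, Mmp8, Mmp10, Mmp1a, Mmp1b and Mmp20 they were Mmp16, Mmp17, Adamts3, Adamts6, Adamts7, Adamts8, Adamts18, Adamts19, Adamts20 and Adamtsl2. In 5 of the 16 all Pparg ldi/+ arrays lay above wild type and in 2 all lay below, where 9.67% and 6.01% of all untested genes did. The 5 were Mmp13, Mmp8, Mmp10, Mmp1b and Adamts18, and all but Adamts18 were already counted in the group on chromosome 9. Mmp8 and Mmp10 count by the narrow margins given above, and no difference is read from Mmp1b. The 2 below were Adamts3, a procollagen-processing enzyme, and Adamtsl2, which binds latent transforming growth factor beta complexes. The other probe set of Adamts3 went the opposite way, at 0.35 with every Pparg ldi/+ array above wild type, so no direction is given for that gene. Adamtsl2 had signals of 38.7, 117 and 48.1 in Pparg ldi/+ fat, against 210.1, 117 and 170.0 in wild-type fat, a difference of -1.04, so that array 2 of the 2 genotypes differed by less than 1 unit, and with no filter it did not pass (adjusted p = 0.0718). Adamts18 was above wild type in the probe set read, by 1.09, and was called with no filter at 1.09 (adjusted p = 0.0261), but its other probe sets were at 0.08 and -0.20 with overlapping groups.

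From array 3 alone against wild type, a comparison in which the lone array is assumed to vary like the others, 3 members rose and 5 fell. The 3 were Mmp12, Mmp14 and Adamtsl5, and the 5 that fell were the same 5 as with all arrays. In that comparison 14.4% of 11155 genes were called, 6.57% higher and 7.87% lower. The other 5 that had risen were all higher there as well, without passing. The intervals were wider than with all arrays for 12 of the 13 called members and narrower for Timp4, and no difference in sizes between the comparisons was tested.

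**Figure D5:**
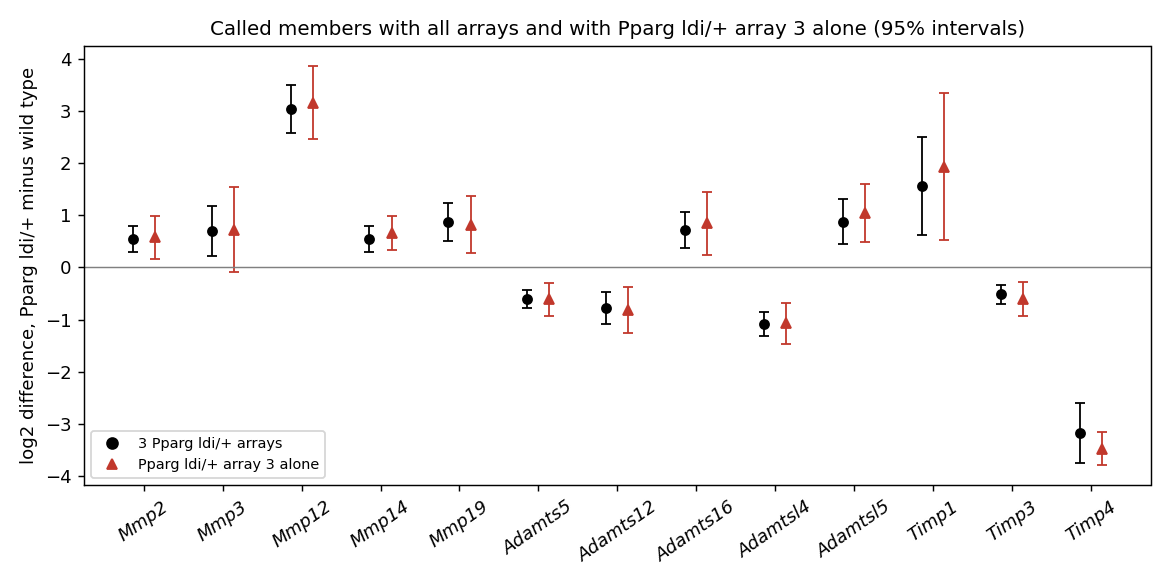
Log2 difference, Pparg ldi/+ minus wild type, with 95% limma intervals for the 13 called members, from 3 Pparg ldi/+ arrays (black circles) and from array 3 alone (red triangles), each against the 3 wild-type arrays. Both estimates have the same sign for each gene, and the interval of Mmp3 reaches past 0 with array 3 alone.

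Other proteases that act on the matrix were described from lists chosen for this tissue, whose counts stand beside the 16.3% of all tested genes that rose and the 16.4% that fell. Of 8 ADAM sheddase genes tested, 4 rose and 1 fell, with a median difference of 0.31. Adam8, a leukocyte sheddase, rose 3.96-fold (signals of 1876, 1823 and 2108 in Pparg ldi/+ fat, against 693, 434 and 330.3 in wild-type fat, adjusted p = 0.000225), and Adam19 rose 1.67-fold (adjusted p = 0.00306). Adam17, the sheddase of tumour necrosis factor that TIMP3 inhibits, and Adam9 were the other two that rose, at 0.53 and 0.45, and Adam15 fell at -0.43. In the cathepsin and cystatin list 4 of 8 rose and 0 fell. The 4 were Ctss, Ctsk, Ctsz and Cstb, of which Cstb is a cystatin gene and not a protease gene. Ctsb, Ctsd, Ctsl and the cystatin gene Cst3 did not pass (0.01, 0.27, -0.17 and -0.09). Ctss, an elastin-cleaving lysosomal protease of macrophages, rose 3.67-fold (adjusted p = 8.78e-05) and Ctsk, a collagen-cleaving one, rose 2.19-fold (adjusted p = 0.000687). The plasminogen system was mostly dim, with 3 of 7 genes tested, and of these the urokinase receptor gene Plaur rose at 0.68 with overlapping groups (adjusted p = 0.0386) and the activator gene Plat was at -0.18 (adjusted p = 0.34).

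In a list of inhibitors outside the TIMP family, clearance receptors and other cell surface proteins, 1 of 6 tested rose and 1 fell. The 1 that rose, Cd44, is not an inhibitor. Reck, a membrane-anchored inhibitor of MMPs, had signals of 338, 321 and 379 in Pparg ldi/+ fat, against 523, 512 and 693 in wild-type fat and fell 1.60-fold (adjusted p = 0.00741). Cd44, a hyaluronan receptor that docks MMPs on the cell surface, rose 4.04-fold (adjusted p = 0.000132). The pair of procollagen C-proteinase enhancers moved in opposite directions. Pcolce was at 7605, 7643 and 7886 in Pparg ldi/+ fat, against 3837, 3449.8 and 4227 in wild-type fat and rose 2.01-fold, and Pcolce2 was at 357, 366 and 392 in Pparg ldi/+ fat, against 1682, 2132 and 1272 in wild-type fat and fell 4.19-fold, with adjusted p of 4.84e-05 and 4.43e-05. These were 2 of the 4 genes tested for procollagen processing, and the protease genes Bmp1 and Furin did not pass (-0.22 and 0.24).

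Genes of proteins that these enzymes act on were listed as well. Of 10 proteoglycan genes tested, 2 rose and 2 fell (20% each way, near the 16.3% and 16.4% of all genes, median -0.15), with Prelp 3.46-fold lower (adjusted p = 6.17e-06) and Lum, the lumican gene, 1.42-fold higher (adjusted p = 0.00237), while Vcan, the versican gene, was at -0.36 and did not pass (adjusted p = 0.103). Of 13 genes of elastic fibres and fibrillin microfibrils, 6 fell and 2 rose (46.2% and 15.4%, median -0.31). Fbln5, which fibre assembly needs, fell 2.28-fold (adjusted p = 1.40e-05), Ltbp4 fell 1.64-fold (adjusted p = 0.000306), and Eln, the elastin gene, was lower at -0.48 (adjusted p = 0.0263). The 2 that rose were Ltbp2 at 1.04 (adjusted p = 0.00131) and Mfap2 at 0.53 (adjusted p = 0.00568). In the list of basement membrane and adhesive proteins 4 of 14 rose and 5 fell (median -0.19). The 5 that fell were Lama4 (-0.53), Nid1 (-0.47, with overlapping groups), Lamb2 (-0.36), Lama2 (-0.32) and Col4a1 (-0.32). Another laminin gene, Lamc1, was among the 4 that rose, at 0.35 without overlap (adjusted p = 0.00414). The largest rise was that of Thbs1, the thrombospondin 1 gene, at 1.74 (adjusted p = 0.00616), and the smallest p-values were those of Vtn, the vitronectin gene, at 1.65 (adjusted p = 2.73e-06) and Tnc, the tenascin C gene, at 1.53 (adjusted p = 0.00105).

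Markers of other cells that make matrix enzymes were measured beside the members. Of 8 markers of stromal progenitors and fibroblasts, 2 rose (Pdgfrb at 0.49 and Lum at 0.51) and 2 fell (Pi16 at -0.91 and Dpp4 at -0.59). Their summed signal was 35552 to 37467 on the Pparg ldi/+ arrays and 36078 to 38481 on the wild-type arrays. Most of that sum came from Dcn, which averaged 21185 in Pparg ldi/+ and 22994 in wild-type fat and did not pass. The sum therefore says little about the other markers. Of 8 endothelial markers 6 fell, with sums of 8301 to 9423 on the Pparg ldi/+ arrays and 16348 to 17291 on the wild-type arrays, and of 7 mesothelial markers 4 fell, with sums of 5706 to 6230.1 on the Pparg ldi/+ arrays and 9299 to 11632 on the wild-type arrays. Of 8 neutrophil markers 2 were bright enough to be tested and 1 rose. Of 6 mast cell markers 5 were tested and 2 rose, of 8 lymphocyte markers 4 were tested and 3 rose, and of 6 smooth muscle markers 5 were tested, with 1 higher and 1 lower. The part of these cells in the members' differences was not tested.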

How the data were processed

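Per the submitters' processing notes, given for 2 of the 6 samples, MAS5 made the deposited values, which are linear signal intensities per probe set. For its version and target intensity the sources used here give nothing, and no detection calls were used. Each array was scaled here to a mean of 500 after trimming 2% at each end, 32 was added and log2 taken. Of 45101 probe sets, 64 controls were left out, and 34945 had a single symbol in the platform annotation. Each gene was read from its brightest probe set (x_at sets left out where another existed, which touched 0 members). Genes with a mean under the median of probe sets (log2 7.46) were not tested. Genotypes were tested by limma (version 3.58.1, R 4.3.3; intensity trend, two-sided, no covariates, Benjamini-Hochberg over 11201 genes, threshold 0.05), tested on simulated data.

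Members, lists and the rule for named genes (every called member, all TIMPs, the rest by difference or range, 2 genes of each related list with the smallest p) were chosen with earlier results of these data known. Related genes named beyond that rule, such as Adam9, Adam15, Adam17, Eln, Vcan, Thbs1, Bmp1 and Furin, were chosen after their values were seen. Same-numbered arrays did not deviate together (r of -0.13, -0.086 and -0.095, beside 0.0358 to 0.0763 for arrays of different number). Deviations from the mean of so few arrays cannot show whether the numbers mark litter mates, so the pairing is unknown. Promoters come from RefSeq tables of GRCm38.p6; the files name no build, so no other coordinates are given. Each limma p-value sets the genotype difference against the spread among mice of the same genotype, moderated over all genes tested. As each mouse had its own array, differences of array and dissection are part of that spread.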

Additional observations from a re-analysis of the deposited data

How the results depend on the processing

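The count of members past the threshold was 12 with the replicate block and lay between 10 and 14 under each other alternative run with all arrays (other offsets, scaling, filters, variance model, array weights, mean of probe sets). Leaving out 1 array in turn gave 11 to 13 members and 2736 to 3348 of all genes. With Pparg ldi/+ array 3 alone, 8 members and 1611 of all genes were called, in place of 13 and 3668; fewer arrays entered that fit. The replicate block left 3166 calls over all genes, and Mmp3 was the one member it ended. The 10 calls other than Mmp3, Timp1 and Adamts16 held in each alternative that tested them with at least 2 Pparg ldi/+ arrays.

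The sign turned in members that had not passed. Adamtsl1 was at -0.0226 with quantile normalisation, -0.17 with array 3 alone, and -0.0703 to 0.108 with an array left out. Mmp11 was at -0.00792 with array weights and -0.0913 to 0.356 with an array left out. Timp2 was at -0.0265 with the mean of its probe sets, Adamts15 at -0.00608 and Mmp7 at -0.64 with array 3 alone. With an array left out the range was -0.289 to 1.34 for Mmp7, -0.0126 to 0.451 for Mmp9, -0.0886 to 0.255 for Adamtsl3 and -0.200 to 0.0372 for Adamts1. Timp2 passed without wild-type array 3 (0.22, adjusted p = 0.039). The cause was not tested. With 3 arrays a genotype and no detection calls, members below the cut for testing have no settled level.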
